A study of Mus musculus with 38 samples.

Results

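The change from E13.5 to E15.5 was described in gonocytes that developed without activin A. These cells came from the 8 Inhba KO animals of the series, 4 at E13.5 and 4 at E15.5, of 19 animals with gonocyte RNA in all (16 of 38 sequencing records). The animals were chosen by the genotype and age in their count columns and titles, with no use of a measured value, and every gene of the count tables was followed. Inhba encodes the subunit from which activin A is assembled, and the KO was constitutive, so that no cell of the embryo could make activin A and gonocytes cannot be told apart from their somatic surroundings as the site of its loss. Heterozygous Inhba x Oct4-Gfp mice of the C57/Bl6/129svJ strain were mated, and both KO and WT embryos carried the reporter, in which Oct4 regulatory sequence drives GFP in germ cells. GFP-positive cells were sorted by FACS from dissociated testes at embryonic day 13.5 or 15.5, and the paired testes of 1 embryo gave 1 replicate. Gonocytes of 3 WT animals at E13.5 and 4 WT animals at E15.5 were measured in the same way and stand beside the KO values where a difference was tested. The p-values measure the spread between these embryos. E15.5 KO animals 1052.2 and 1052.4 share the number before the point, as do KO animal 855.1 and WT animal 855.2. In the Inha animals of the series such a shared number goes with a label of littermates, but for the Inhba animals no litter is given and the number was not used in the fits.

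Gonocytes, the germ cells of the fetal testis, pass through a rapid change over these days. They leave the mitotic cycle, silence genes shared with pluripotent cells, and take up the male programme of RNA-binding proteins, piRNA pathway proteins and DNA methyltransferases. Nodal, made by the germ cells, and activin A, made by somatic cells of the testis, bind the same type 2 and type 1 receptors, which activate SMAD2 and SMAD3. Activin A is known to act on the balance of germ cell proliferation and differentiation in the mouse fetal testis.

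Levels are in cpm, an animal's counts scaled to a fixed library total, and are compared between animals and not between genes. A pair of levels joined by "to" after a gene name runs from the mean of E13.5 KO to the mean of E15.5 KO. In each series of per-animal values, the order is 928.1, 832.1, 696.6 and 831.2 at E13.5, and 855.1, 1052.2, 1052.4 and 892.2 at E15.5. Total counts lay between 17239105 and 19736434 in the E13.5 KO animals and between 8466087 (855.1) and 40600907 (1052.2) in the E15.5 KO animals, and 3 counts equal 0.0739 to 0.354 cpm at these depths. Mitochondrially encoded genes took 8.67% to 12.7% of counts at E13.5 and 7.64% to 10.6% at E15.5. Of 12 gonocyte markers, 11 were in the tables, and their summed level lay between 4602 and 5299 cpm in E13.5 animals, and in E15.5 animals between 5453 and 5958 cpm. Inhba itself was near 0 in sorted gonocytes of both genotypes, with KO values of 0.332, 0.696, 0.612 and 0.355 cpm at E13.5 and 0.591, 0.665, 0.0960 and 0.0937 cpm at E15.5, and WT values of 0.0528 to 0.202 cpm (E13.5) and 0.466 to 0.842 cpm (E15.5). At these levels, under the study's detection limit in every animal, Inhba was no check of the genotype labels. By the study's methods, each embryo was genotyped from its tail, and Inhba was looked for in somatic cells, which are not analysed here. The genotype field of KO animal 928.1 reads WT, against its title and its count column, which were followed, and the same fields read KO for the 4 E15.5 WT animals. The study's heatmap legend gives 3 KO and 4 WT animals at E13.5, whereas titles and columns give 4 KO and 3 WT. Its methods leave out an E13.5 WT gonocyte sample as an outlier that may have been contaminated or swapped. The genotype of 928.1 could not be checked from its gonocyte counts.

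One KO library at each age stood apart from its group toward the other age. Log2 expression of each animal was placed on the line from the E13.5 WT mean, at 0, to the E15.5 WT mean, at 1, leaving that animal out of the means. The E13.5 KO animals 928.1, 832.1 and 831.2 lay at -0.0197, -0.00208 and 0.031, and animal 696.6 at 0.167. The E15.5 KO animals 855.1, 1052.2 and 1052.4 lay at 0.929, 0.984 and 0.9, and animal 892.2 at 0.666. WT animals lay between -0.0029 and 0.0272 at E13.5 and between 0.755 and 1.16 at E15.5. The first principal component of the 15 Inhba animals held 82.7% of the variance and separated the ages, with 696.6 and 892.2 the KO animals nearest to the other age. Both animals stayed in the comparison, and a log2 fold change without them is given beside each one that this moved by more than 1.5-fold. No fold change is given where the mean of the E13.5 animals used lies under the mean level of 3 counts (0.165 cpm).

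**Figure D1:**
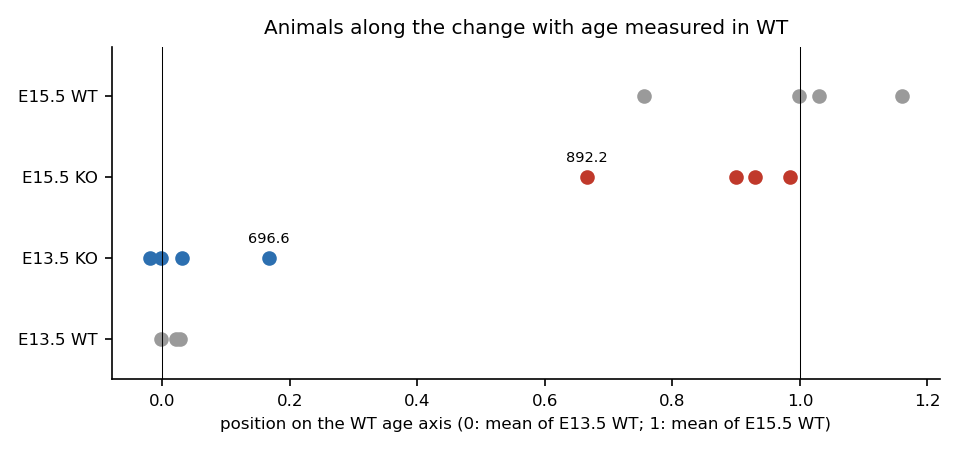
Position of each Inhba animal on the axis of the WT change with age (x axis, no unit, 0 for the mean of E13.5 WT and 1 for the mean of E15.5 WT), by group. Points are animals (blue, E13.5 KO; red, E15.5 KO; grey, WT). KO animals 696.6, at 0.167, and 892.2, at 0.666, lie between the ages, and the other KO animals lie near 0 or between 0.9 and 0.984.

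Most genes above the detection limit changed with age in KO gonocytes. Of 14676 genes above the study's germ cell detection limit in at least 2 of the 8 KO animals, 4275 (29.1%) were higher and 3700 (25.2%) lower at E15.5, 54.3% in either direction, by edgeR's quasi-likelihood test requiring both an adjusted p (Benjamini-Hochberg) under 0.05 and more than a 1.5-fold change. The other 6701 were not called, among them 1832 with a significant change of less than 1.5-fold. The median log2 fold change over all tested genes was 0.02. Large rises outnumbered large falls. Above 4-fold, 1697 genes were higher and 437 lower, and above 16-fold 530 were higher and 26 lower. The counts above 4-fold include genes that passed the detection limit through 1 age only. Genes called higher were mostly of low level at E13.5, with a median of 3.21 cpm that became 12.5 cpm, whereas genes called lower went from a median of 31.0 to 14.3 cpm. The called-higher genes made up 9.39% to 12.4% of all counts in E13.5 and 21.3% to 28.4% in E15.5 KO animals. The called-lower genes went from 32.3% to 36.7% of counts down to 16.2% to 21.1%. The direction of these shares and medians follows from the choice of genes by their change in the same animals, and only their size is informative. In all, 718 genes lay above the detection limit in every E15.5 and no E13.5 KO animal, and 175 the other way around. The cpm values of the ages did not overlap for 8401 genes (57.2% of those tested). With 696.6 and 892.2 left out, 8487 genes were called, and 97% of the calls from all animals were among them with the same direction.

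Most tested transcripts of the Nodal and activin pathway fell in KO gonocytes, led by the Nodal antagonists. Of 28 listed genes, 21 could be tested. Of these, 1 of 21 tested members was higher and 12 were lower at E15.5, with a median log2 fold change of -1.03 in KO and -1.13 in WT (0.02 over all genes tested in KO). A gene could pass the detection limit through 1 age alone and then had to differ. In the lists of at least 10 genes given below by counts and medians, at most 23.5% of the tested members were of this kind. Nodal (ENSMUSG00000037171, chr10:61417972-61425338, GRCm38) encodes the ligand, and it was measured at 21.0, 15.8, 10.8 and 12.01 cpm at E13.5 and 3.31, 2.56, 4.65 and 3.79 cpm at E15.5. No E15.5 value reached the lowest E13.5 value, and Nodal fell about as far as its ligand relative Gdf3 (log2 fold change -2.17, SE 0.35, edgeR adjusted p = 6.64e-05 for Nodal and -2.12 for Gdf3). Tdgf1 encodes Cripto, the co-receptor that Nodal needs, and its levels were 21.1, 20.6, 11.0 and 14.3 cpm at E13.5 and 0.709, 1.18, 1.77 and 1.87 cpm at E15.5 (log2 fold change -3.65, SE 0.33, edgeR adjusted p = 2.69e-07). All 4 E15.5 animals lay under the detection limit for Tdgf1, and none of the E13.5 animals did.

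Lefty1 and Lefty2 encode secreted inhibitors of Nodal whose genes Nodal signalling itself switches on. Lefty2 (ENSMUSG00000066652, chr1:180893108-180899103) was measured at 274, 207, 88.1 and 171 cpm at E13.5 and 6.97, 3.84, 7.96 and 13.5 cpm at E15.5 (log2 fold change -4.63, SE 0.42, edgeR adjusted p = 2.95e-07). Levels of Lefty1 (ENSMUSG00000038793, chr1:180935022-180938400) were 62.0, 60.7, 39.2 and 46.5 cpm at E13.5 and 1.54, 0.640, 2.88 and 4.73 cpm at E15.5 (log2 fold change -4.51, SE 0.44, edgeR adjusted p = 4.90e-07). For both genes, animal 696.6 was the lowest of its age and animal 892.2 the highest of its age, and the ages were still far apart. Without these 2 animals the log2 fold change was -5.32 for Lefty2 and -5.29 for Lefty1. Foxh1, the DNA-binding partner of SMAD2 and SMAD3 at Nodal target genes, was measured at 13.2, 10.3, 5.17 and 5.42 cpm at E13.5 and 0.236, 0.419, 0.528 and 0.656 cpm at E15.5 (log2 fold change -4.24, SE 0.38, edgeR adjusted p = 2.45e-07), below the detection limit in each E15.5 animal.

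The receptors and SMADs that activin A and Nodal share had log2 fold changes nearer to 0 than the ligand and the antagonists. Acvr2a, the type 2 receptor gene, had means of 47.1 cpm at E13.5 and of 37.8 cpm at E15.5, a fall of less than 1.5-fold (log2 fold change -0.41, SE 0.12, edgeR adjusted p = 0.00802), whereas Acvr2b fell (log2 fold change -0.71, SE 0.16, edgeR adjusted p = 0.00133). Acvr1b, the type 1 receptor gene, was the single member called higher, from 24.4 to 38.9 cpm (log2 fold change 0.59, SE 0.15, edgeR adjusted p = 0.00238), just past 1.5-fold. Smad3 fell from 19.3 to 8.55 cpm (log2 fold change -1.28, SE 0.31, edgeR adjusted p = 0.00166), and the inhibitory Smad7 and Smad6 had log2 fold changes of -1.30 and -1.18. Smad2 (log2 fold change -0.32) and Smad4 (-0.05) were not called. Fst, which encodes the activin-binding follistatin, had means of 3.38 cpm at E13.5 and of 4.31 cpm at E15.5 (log2 fold change 0.23, SE 0.33, edgeR adjusted p = 0.550). Inhbb, the activin B subunit gene, and Inha, the gene of the inhibin alpha subunit that forms an activin A inhibitor, were not tested. Their means lay under the detection limit at both ages.

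Genes shared with pluripotent cells and primordial germ cells fell, with Pou5f1 as an exception among the core factors. 2 of 27 tested members were higher and 18 were lower at E15.5, with a median log2 fold change of -1.26 in KO and -2.02 in WT. L1td1 (ENSMUSG00000087166, chr4:98726734-98738480), an RNA-binding protein gene of pluripotent cells, had the largest fall among genes above 50 cpm, at 527, 556, 213 and 558 cpm at E13.5 and 8.62, 12.1, 19.6 and 31.3 cpm at E15.5 (log2 fold change -4.79, SE 0.43, edgeR adjusted p = 2.47e-07). Animal 696.6 stood well below the other E13.5 animals for L1td1, and without 696.6 and 892.2 the log2 fold change was -5.48. Kit, the receptor tyrosine kinase gene of migrating and proliferating germ cells, was measured at 267, 212, 115 and 195 cpm at E13.5 and 28.9, 24.0, 19.8 and 19.9 cpm at E15.5 (log2 fold change -3.21, SE 0.26, edgeR adjusted p = 9.28e-08). The ages stood apart without overlap. Nanog, a core pluripotency factor, was measured at 62.9, 54.6, 45.6 and 56.8 cpm at E13.5 and 12.1, 6.06, 8.25 and 17.6 cpm at E15.5 (log2 fold change -2.43, SE 0.35, edgeR adjusted p = 1.90e-05), and Sox2 went from a mean of 81.5 to 23.1 cpm (log2 fold change -1.92, SE 0.39, edgeR adjusted p = 4.68e-04). Pou5f1, which encodes OCT4 and whose regulatory sequence drives the sorting reporter, was measured at 132, 128, 139 and 96.2 cpm at E13.5 and 114, 93.3, 113 and 112 cpm at E15.5. Its ages overlapped and it was not called (log2 fold change -0.29, SE 0.14, edgeR adjusted p = 0.0823). Further members called lower included the germ cell specification factors Prdm14 (log2 fold change -2.55, and -3.14 without 696.6 and 892.2), Prdm1 (-1.72) and Tfap2c (-1.29), the naive pluripotency factors Esrrb (-2.26) and Klf2 (-3.59), and Dppa3 (-1.14). The members called higher were Dppa4, which encodes a chromatin protein of pluripotent cells, at 98.6, 117, 157 and 104 cpm at E13.5 and 284, 317, 305 and 250.1 cpm at E15.5 (log2 fold change 1.19, SE 0.12, edgeR adjusted p = 8.48e-07), and the transcription factor gene Tfcp2l1 (1.11). Sall4 (log2 fold change -0.39), Lin28a (0.14) and Klf4 (0.80) were not called, although Klf4 was called higher without 696.6 and 892.2.

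Output genes of FGF and ERK signalling, which sustains proliferating germ cells, fell over the same days. 1 of 16 tested members was higher and 12 were lower at E15.5, with a median log2 fold change of -1.68 in KO and -2.34 in WT. The transcription factor gene Etv1 was measured at 42.9, 34.9, 23.5 and 35.4 cpm at E13.5 and 2.13, 1.404, 1.44 and 3.84 cpm at E15.5 (log2 fold change -4.07, SE 0.33, edgeR adjusted p = 1.08e-07), its relative Etv4 went from 17.8 to 2.44 cpm (-2.99), and Fgfr2, an FGF receptor gene, was measured at 96.6, 111, 86.5 and 113 cpm at E13.5 and 12.4, 10.7, 14.2 and 24.5 cpm at E15.5 (log2 fold change -2.81, SE 0.25, edgeR adjusted p = 2.06e-07). The ages were separated for both. Feedback inhibitor genes of the pathway fell too, among them Dusp4 (log2 fold change -3.21), Spry4 (-2.71) and Dusp6 (-2.03). Without 696.6 and 892.2 the log2 fold changes of Etv1 and Dusp4 were -4.74 and -3.83. Fgf8, a ligand gene, was the one member called higher, from 0.690 to 3.86 cpm.

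**Figure D2:**
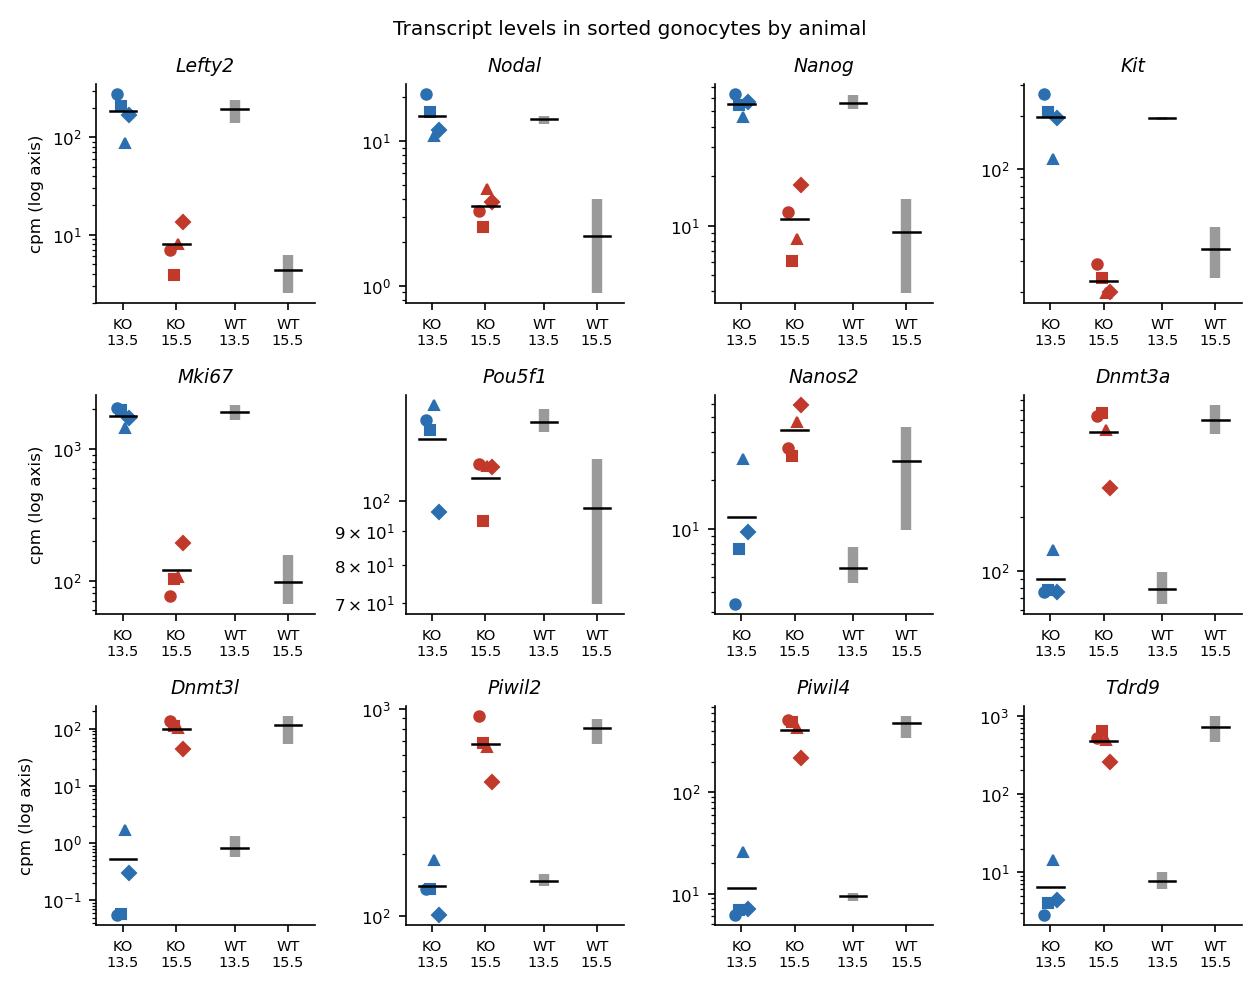
Levels of 12 transcripts in cpm (log axes) by group. Coloured points are KO animals (circle, square, triangle and diamond in the order 928.1, 832.1, 696.6 and 831.2 at E13.5 in blue, and 855.1, 1052.2, 1052.4 and 892.2 at E15.5 in red), grey bars span the WT animals and black lines are means. The ages of KO separate for every gene shown except Pou5f1, and animal 892.2, the diamond at E15.5, has the lowest level of Dnmt3a (290 cpm), Dnmt3l, Piwil2, Piwil4 and Tdrd9 at its age.

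Genes of the dividing cell were lower at E15.5. Of the DNA replication genes, 0 of 38 tested members were higher and 31 were lower at E15.5 (median log2 fold change of -1.38 in KO and -1.55 in WT). Of the mitosis genes, 0 of 45 tested members were higher and 34 were lower at E15.5 (median log2 fold change of -1.36 in KO and -1.63 in WT). Mki67 (ENSMUSG00000031004, chr7:135689784-135716361), the Ki-67 proliferation marker, was measured at 2034, 1955, 1444 and 1711 cpm at E13.5 and 76.2, 104, 107 and 194 cpm at E15.5 (log2 fold change -3.98, SE 0.31, edgeR adjusted p = 8.68e-08). Animal 892.2 had the highest Mki67 level of E15.5 and 696.6 the lowest of E13.5, and the ages did not overlap. Gmnn encodes geminin, which blocks relicensing of replication origins, and was measured at 115, 101, 78 and 107 cpm at E13.5 and 12.5, 15.3, 15.2 and 14.0 cpm at E15.5 (log2 fold change -2.92, SE 0.14, edgeR adjusted p = 2.88e-09), with little spread within either age. Tyms, the thymidylate synthase gene, fell from 81.1 to 18.2 cpm (log2 fold change -2.25, SE 0.16, edgeR adjusted p = 3.94e-08). Rrm2, the cycle-regulated subunit of ribonucleotide reductase, was measured at 99.4, 104, 42.7 and 73.7 cpm at E13.5 and 3.78, 4.24, 3.31 and 7.03 cpm at E15.5 (log2 fold change -4.21, SE 0.30, edgeR adjusted p = 4.52e-08). For the replicative helicase gene Mcm6, levels were 697, 619, 577 and 680.3 cpm at E13.5 and 226, 204, 206 and 231 cpm at E15.5 (log2 fold change -1.67, SE 0.11, edgeR adjusted p = 3.62e-08). The ages of all these replication genes stood apart. Among mitosis genes, the spindle genes Nusap1, at 178, 194, 179 and 185 cpm at E13.5 and 41.2, 48.3, 49.6 and 47.8 cpm at E15.5 (log2 fold change -2.08, SE 0.10, edgeR adjusted p = 2.88e-09), and Tpx2 (-2.20), the kinase gene Plk1 (-2.65) and Incenp of the chromosomal passenger complex (-1.87) all fell. In the replication list, only Gins4, Prim2 and Pole had positive values (at most 0.15), and none was called.

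Replication-dependent histone genes are transcribed in S phase. Of 57 listed, 38 were tested, but 24 of these were above the detection limit at E13.5 only and so had to be lower. Of the 14 above it at both ages, 12 were lower and 1 was higher. Hist1h1b, a linker histone gene, was measured at 142, 143, 147 and 72.9 cpm at E13.5 and 5.20, 1.43, 3.02 and 10.5 cpm at E15.5 (log2 fold change -4.75, SE 0.59, edgeR adjusted p = 5.20e-06), with animal 831.2 below the other E13.5 animals. Hist1h3g fell furthest, from a mean of 6.6 to 0.208 cpm (log2 fold change -5.14, SE 0.38, edgeR adjusted p = 6.65e-08), and Hist1h1d (-4.10), Hist1h1e (-3.67) and Hist1h3e (-3.71) also fell. Without 696.6 and 892.2 the log2 fold changes of Hist1h1b and Hist1h1d were -5.57 and -4.69. The member called higher was Hist1h2bc. Their transcripts mostly lack poly(A) tails and are similar in sequence, so reads may be shared between copies.

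The genes that admit a cell to S phase fell with them, and inhibitor genes of the cycle did not rise as a group. 2 of 21 tested members were higher and 15 were lower at E15.5 (median log2 fold change of -1.13 in KO and -1.62 in WT). E2f8, a repressor of the E2F family whose own gene is active in S phase, was measured at 71.8, 65.2, 31.9 and 41.2 cpm at E13.5 and 0.709, 2.63, 1.87 and 3.19 cpm at E15.5 (log2 fold change -4.65, SE 0.35, edgeR adjusted p = 7.26e-08). Ccne1, the cyclin E gene that starts S phase, was measured at 38.2, 30.8, 19.2 and 18.6 cpm at E13.5 and 2.13, 3.92, 4.32 and 4.59 cpm at E15.5 (log2 fold change -2.90, SE 0.29, edgeR adjusted p = 6.32e-07). E2f7, the close relative of E2f8 (55.2 to 17.9 cpm, log2 fold change -1.72), and Tfdp1, a dimer partner gene of E2F proteins (87.3 to 30.8 cpm, log2 fold change -1.61), fell as well. The members called higher were the repressor gene E2f6 (log2 fold change 1.12) and Tfdp2 (0.59). Of the cell cycle inhibitors, 1 of 17 tested members was higher and 5 were lower at E15.5 (median log2 fold change of -0.18 in KO and -0.50 in WT). Over all genes tested, 29.1% were higher and 25.2% lower, so the share of inhibitors called lower was close to that of all genes. Trp53 was measured at 162, 154, 83.0 and 100.4 cpm at E13.5 and 17.8, 18.3, 24.3 and 31.7 cpm at E15.5 (log2 fold change -2.54, SE 0.32, edgeR adjusted p = 4.69e-06), and its target Cdkn1a, the p21 gene, at 27.9, 32.5, 22.5 and 22.9 cpm at E13.5 and 11.0, 6.03, 8.83 and 12.2 cpm at E15.5 (log2 fold change -1.58, SE 0.26, edgeR adjusted p = 7.96e-05). Both fell without overlap of the ages. Gadd45b (log2 fold change -1.18) and Btg1 (-0.97) were also called lower. Cdkn2b, the p15 gene, was the one inhibitor called higher (4.44 to 8.66 cpm, log2 fold change 0.86). Cdkn1b, the p27 gene, had a log2 fold change of 0.54 (SE 0.36) and was not called (edgeR adjusted p = 0.195), and Rb1 and Cdkn1c were at -0.34 and -0.13, also not called.

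Promoters of the mitosis genes are shown because these genes moved together and many share short sequences. RefSeq promoters (GRCm38.p6, 250 bases before to 50 after the start) were sought for part of the tested protein-coding genes. The search took in 43 of the 45 tested mitosis genes and 12192 of the 12533 tested protein-coding genes. Promoters were matched for 37 of these 43 and for 10009 of these 12192, and the tested genes outside the search are in none of the shares below. The cell cycle homology region was searched on both strands as TTTGAA and in its other form TTCGAA. It was in 78.4% of the mitosis promoters and in 14% of all matched promoters. Its share was 16.5% for genes called lower, 12.6% for genes called higher and 13.5% for genes not called. Among the 27025 RefSeq promoters searched, of genes tested or not, it was 19.4%. The CCAAT box, searched as CCAAT on both strands, was in 75.7% of mitosis promoters and 39.8% of all matched. An E2F site, searched as TTTCCCGC or TTTGGCGC on both strands, was in none of the 37 mitosis promoters, and in 5.07% of promoters of genes called lower, 2.23% of those called higher and 3.21% of all matched. Shown are the promoters of Mki67 (chr7:135716330-135716629, minus strand) and Ube2c (chr2:164769679-164769978, plus strand), the latter the gene of an enzyme that marks mitotic cyclins for degradation, since these had the largest falls among the mitosis genes with a promoter in the table (log2 fold changes -3.98 and -2.92). Capitals mark CCAAT boxes and the cell cycle homology region, read from either strand, and one pair of CCAAT boxes in Ube2c overlaps, on opposite strands. A match describes the letters and is not a measured binding site.
Mki67: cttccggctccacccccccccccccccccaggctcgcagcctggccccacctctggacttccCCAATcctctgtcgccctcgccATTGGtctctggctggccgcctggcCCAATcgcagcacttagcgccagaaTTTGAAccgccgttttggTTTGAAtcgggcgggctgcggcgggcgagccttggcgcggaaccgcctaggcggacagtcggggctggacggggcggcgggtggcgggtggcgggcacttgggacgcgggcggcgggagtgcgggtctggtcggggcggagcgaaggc
Ube2c: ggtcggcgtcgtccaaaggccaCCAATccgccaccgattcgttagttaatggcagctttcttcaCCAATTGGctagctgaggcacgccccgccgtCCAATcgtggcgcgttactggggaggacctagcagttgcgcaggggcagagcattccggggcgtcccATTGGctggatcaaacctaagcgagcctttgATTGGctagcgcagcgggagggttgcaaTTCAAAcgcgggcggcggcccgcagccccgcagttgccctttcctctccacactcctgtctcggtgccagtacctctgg

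The piRNA pathway rose almost as a whole. Piwi proteins, guided by small piRNAs, silence transposons in fetal male germ cells and direct DNA methylation to them. 24 of 27 tested members were higher and 1 was lower at E15.5, with a median log2 fold change of 1.74 in KO and 1.73 in WT. Of the Piwi genes, Piwil4 (ENSMUSG00000036912, chr9:14696230-14740733), which encodes the nuclear MIWI2, was measured at 6.15, 6.84, 25.6 and 7.04 cpm at E13.5 and 514, 492, 432 and 219.6 cpm at E15.5 (log2 fold change 5.12, SE 0.41, edgeR adjusted p = 1.01e-07). Piwil2, which encodes MILI, was measured at 135, 136, 187 and 101 cpm at E13.5 and 919, 686, 654 and 446 cpm at E15.5 (log2 fold change 2.19, SE 0.18, edgeR adjusted p = 1.42e-07). Piwil1, the MIWI gene, known mainly from later spermatogenesis, was measured at 2.99, 2.49, 6.06 and 2.03 cpm at E13.5 and 51.6, 40.3, 49.8 and 25.6 cpm at E15.5 (log2 fold change 3.54, SE 0.33, edgeR adjusted p = 3.50e-07). None of these genes overlapped between ages, and for each the E13.5 animal 696.6 was the highest and the E15.5 animal 892.2 the lowest of its age. Without these 2 animals the log2 fold change of Piwil4 was 6.01.

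Partner genes of the Piwi proteins rose by differing amounts. Spocd1 (ENSMUSG00000028784, chr4:129929249-129957115), needed in mouse for piRNA-directed DNA methylation, had the largest rise among genes above 50 cpm, with 0, 0.116, 1.00 and 0 cpm at E13.5 and 148, 130, 111 and 35.9 cpm at E15.5 (log2 fold change 8.47, SE 0.69, edgeR adjusted p = 1.19e-07). Its E13.5 level was carried by animal 696.6. Without that animal it rests on a few reads, and no fold change is given. Tdrd9 (ENSMUSG00000054003, chr12:111971559-112068854), which encodes an RNA helicase partner of MIWI2, was measured at 2.82, 4.06, 14.5 and 4.36 cpm at E13.5 and 519, 639, 488 and 251 cpm at E15.5 (log2 fold change 6.14, SE 0.46, edgeR adjusted p = 6.77e-08). Tex15, also tied to MIWI2 in mouse, was measured at 294, 293, 229 and 133 cpm at E13.5 and 3127, 3298, 2574 and 2040 cpm at E15.5 (log2 fold change 3.45, SE 0.23, edgeR adjusted p = 3.43e-08), and the helicase gene Mov10l1, needed to make piRNAs, at 148, 161, 224 and 142 cpm at E13.5 and 888, 782, 819 and 679 cpm at E15.5 (log2 fold change 2.14, SE 0.12, edgeR adjusted p = 8.82e-09). For Tdrd9, Tex15 and Mov10l1 the ages stood apart, and animal 892.2 had the lowest level of E15.5. Without 696.6 and 892.2 the log2 fold change of Tdrd9 was 7.03. Stk31, a Tudor domain kinase gene, rose from 404 to 1048 cpm (log2 fold change 1.28, SE 0.09, edgeR adjusted p = 3.43e-08). Mael and Tdrd1, both of the perinuclear granules where piRNAs work, rose as well. Mael was measured at 104, 109.8, 217 and 83.0 cpm at E13.5 and 711, 1176, 1071 and 867 cpm at E15.5 (log2 fold change 2.82, SE 0.23, edgeR adjusted p = 1.02e-07), and Tdrd1 at 43.8, 78.1, 155 and 72.7 cpm at E13.5 and 1081, 1012, 899 and 603 cpm at E15.5 (log2 fold change 3.29, SE 0.28, edgeR adjusted p = 1.77e-07). Ddx4, the germ cell helicase gene, had a small rise from levels that were high at both ages, with 670.1, 493, 464 and 452 cpm at E13.5 and 834, 887, 885 and 762 cpm at E15.5 (log2 fold change 0.59, SE 0.12, edgeR adjusted p = 5.65e-04). Without 696.6 and 892.2 the log2 fold change of Ddx4 was 0.54, under 1.5-fold. The one member called lower was Mybl1, the gene of the transcription factor that drives piRNA precursors at meiosis, from 97.8 to 69.1 cpm (log2 fold change -0.60, SE 0.18, edgeR adjusted p = 0.00726). Tdrkh (log2 fold change 0.45) and Pld6 (0.48) were not called.

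Among piRNA genes with a RefSeq promoter in the table, Kif17, a kinesin gene, and Tdrd9 had the largest fitted rises, and their promoters are shown as the regions that start these transcripts. Kif17 was measured at 0, 0, 0.111 and 0 cpm at E13.5 and 7.91, 8.55, 5.71 and 1.12 cpm at E15.5, so that its E13.5 level rests on a few reads of animal 696.6 and no fold change is given. Only 20 of the 27 tested piRNA genes had a promoter in the table, which is too few for a share over the list. Capitals mark TGACGTCA (the CRE letters, in 3.38% of all matched promoters) in Kif17 (chr4:138262001-138262300, plus strand). In Tdrd9 (chr12:111971309-111971608, plus strand) they mark the E-box CACGTG (10.6% of all matched promoters), CCAAT boxes read from the other strand (39.8%) and the FOXH1 letters AATCCACA (0.47%), each searched on both strands. The SMAD letters, searched on both strands as GTCTAGAC and as AGCCAGAC, in 1.6% of all matched promoters, were in neither window.
Kif17: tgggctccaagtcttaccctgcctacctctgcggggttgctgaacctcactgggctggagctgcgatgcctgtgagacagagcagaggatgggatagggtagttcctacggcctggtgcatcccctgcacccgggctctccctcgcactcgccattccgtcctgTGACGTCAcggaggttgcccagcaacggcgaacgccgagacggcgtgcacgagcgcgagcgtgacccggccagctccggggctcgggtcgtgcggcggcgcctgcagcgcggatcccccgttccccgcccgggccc
Tdrd9: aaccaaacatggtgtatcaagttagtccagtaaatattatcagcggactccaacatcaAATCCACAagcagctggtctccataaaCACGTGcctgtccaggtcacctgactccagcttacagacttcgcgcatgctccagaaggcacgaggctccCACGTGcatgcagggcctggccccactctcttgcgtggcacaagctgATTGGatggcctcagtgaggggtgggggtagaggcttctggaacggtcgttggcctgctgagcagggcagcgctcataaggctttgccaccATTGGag

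DNA methylation genes moved in both directions. 9 of 19 tested members were higher and 7 were lower at E15.5 (median log2 fold change of 0.49 in KO and 0.43 in WT). Dnmt3l (ENSMUSG00000000730, chr10:78041947-78063622), the cofactor gene of the de novo enzymes, was measured at 0.0554, 0.0580, 1.67 and 0.304 cpm at E13.5 and 136, 111, 102 and 43.8 cpm at E15.5 (log2 fold change 7.46, SE 0.64, edgeR adjusted p = 1.67e-07), and Dnmt3a, a de novo methyltransferase gene, at 75.4, 77.3, 131 and 75.6 cpm at E13.5 and 732, 764, 611 and 289.9 cpm at E15.5 (log2 fold change 2.65, SE 0.26, edgeR adjusted p = 5.26e-07). Animal 892.2 lay well below the other E15.5 animals for both, and the ages did not overlap. Without 696.6 the E13.5 mean of Dnmt3l lay under the level of 3 counts. Dnmt3b rose less (19.5 to 42.9 cpm, log2 fold change 1.03), as did the histone demethylase gene Kdm1b (67.8 to 299.5 cpm, log2 fold change 2.04). Dnmt1, the gene of the enzyme that copies methylation at replication, was measured at 746, 614, 511 and 634 cpm at E13.5 and 262, 291, 256 and 218 cpm at E15.5 (log2 fold change -1.39, SE 0.14, edgeR adjusted p = 5.34e-07), and its partner gene Uhrf1 fell from 55.4 to 23.8 cpm (-1.32). The TET genes, whose enzymes oxidise methylcytosine, moved in opposite directions. Tet1 fell from 1534 to 313 cpm (log2 fold change -2.38, SE 0.34, edgeR adjusted p = 2.02e-05), and Tet3 rose, at 4.04, 1.28, 5.84 and 2.48 cpm at E13.5 and 57.3, 75.1, 67.7 and 36.0 cpm at E15.5 (log2 fold change 4.02, SE 0.34, edgeR adjusted p = 1.61e-07).

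Male germ cell RNA regulators moved in both directions. 4 of 19 tested members were higher and 8 were lower at E15.5 (median log2 fold change of -0.38 in KO and -0.47 in WT). Nanos2 (ENSMUSG00000051965, chr7:18987400-18988962), which promotes the male fate of germ cells in mouse, was measured at 3.38, 7.48, 27.1 and 9.47 cpm at E13.5 and 32.0, 28.2, 46.4 and 58.8 cpm at E15.5 (log2 fold change 1.75, SE 0.50, edgeR adjusted p = 0.00550). The ages were separated by a narrow margin, between 27.1 cpm in 696.6 and 28.2 cpm in 1052.2, and without 696.6 and 892.2 the log2 fold change was 2.22. Msi2, a Musashi RNA-binding protein gene, was measured at 26.0, 24.1, 46.7 and 32.6 cpm at E13.5 and 152, 139, 142 and 117 cpm at E15.5 (log2 fold change 2.00, SE 0.16, edgeR adjusted p = 1.21e-07), and its relative Msi1 rose from 1.68 to 7.27 cpm (log2 fold change 2.02, SE 0.32, edgeR adjusted p = 4.27e-05). Dnd1, whose product acts with NANOS proteins, rose as well (14.2 to 40.0 cpm, log2 fold change 1.4). The members called lower included Elavl2 (263 to 109 cpm, log2 fold change -1.37), the 3 Igf2bp genes (-1.12, -0.86 and -1.08), Cnot1, the scaffold gene of the deadenylase complex (1216 to 620 cpm, log2 fold change -1.07), and Dazl (2006 to 1174 cpm, log2 fold change -0.87).

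Spermatogonial regulators included genes that went from almost no reads to clear expression. 11 of 23 tested members were higher and 5 were lower at E15.5 (median log2 fold change of 0.51 in KO and 0.41 in WT). Sohlh1 (ENSMUSG00000059625, chr2:25842995-25847248), a basic helix-loop-helix factor gene of spermatogonia, was measured at 0.0554, 0, 0.334 and 0 cpm at E13.5 and 59.6, 42.9, 50.3 and 18.9 cpm at E15.5 and was called higher (edgeR adjusted p = 2.56e-08), with no fold change given because its E13.5 mean lies under the level of 3 counts. Its relative Sohlh2 moved the other way, at 202, 171, 130.3 and 136 cpm at E13.5 and 16.9, 8.99, 13.8 and 32.7 cpm at E15.5 (log2 fold change -3.24, SE 0.38, edgeR adjusted p = 2.91e-06). Neither gene overlapped between ages, and without 696.6 and 892.2 the log2 fold change of Sohlh2 was -3.87. Bcl6b, a stem cell maintenance factor gene, was measured at 0.111, 0, 0.390 and 0.253 cpm at E13.5 and 26.3, 20.6, 17.3 and 9.09 cpm at E15.5 (log2 fold change 6.44, SE 0.56, edgeR adjusted p = 1.99e-07), and the X-linked homeobox gene Rhox10 at 1.16, 2.20, 3.34 and 1.77 cpm at E13.5 and 58.6, 51.8, 48.4 and 34.0 cpm at E15.5 (log2 fold change 4.42, SE 0.28, edgeR adjusted p = 2.78e-08). Without 696.6 the E13.5 mean of Bcl6b lay under the level of 3 counts. Zbtb16 (1.65 to 9.87 cpm) and Gfra1, the GDNF co-receptor gene (0.397 to 3.33 cpm), rose from below the detection limit, while Lhx1 (94.1 to 14.4 cpm) and Etv5 (182 to 55.2 cpm) fell. Ret (log2 fold change 0.13), Id4 (0.51) and Foxo1 (-0.06) were not called.

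Part of the meiosis list rose, though Stra8 did not. 12 of 28 tested members were higher and 4 were lower at E15.5 (median log2 fold change of 0.34 in KO and 0.45 in WT). Sycp2 and Sycp3, genes of the axial element of meiotic chromosomes, rose from 73.0 to 308 cpm (log2 fold change 1.99, SE 0.21, edgeR adjusted p = 9.02e-07) and 26.1 to 91.2 cpm (log2 fold change 1.72, SE 0.22, edgeR adjusted p = 5.96e-06). Tex12, of the central element, was measured at 22.8, 20.5, 20.9 and 16.6 cpm at E13.5 and 93.7, 76.3, 94.2 and 77.6 cpm at E15.5 (log2 fold change 1.98, SE 0.16, edgeR adjusted p = 9.05e-08), and Brdt, a bromodomain gene of the male germ line, at 30.1, 33.2, 66.6 and 29.9 cpm at E13.5 and 586, 644, 514 and 342 cpm at E15.5 (log2 fold change 3.63, SE 0.29, edgeR adjusted p = 1.11e-07). Stra8, which starts meiosis in response to retinoic acid, had means of 1.84 cpm at E13.5 and of 2.05 cpm at E15.5 (log2 fold change -0.03, SE 0.44, edgeR adjusted p = 0.958), and the recombination genes Dmc1 (-0.35) and Spo11 (0.53) were not called. Syce2 (log2 fold change -2.06) and Smc1b (-1.04) fell. For retinoic acid genes, 5 of 11 tested members were higher and 1 was lower at E15.5 (median log2 fold change of 0.71 in KO and 1.81 in WT). Rxra, a receptor partner gene, was measured at 22.2, 29.4, 40.95 and 33.1 cpm at E13.5 and 94.0, 111, 106 and 74.5 cpm at E15.5 (log2 fold change 1.53, SE 0.16, edgeR adjusted p = 1.04e-06), and Crabp2, which carries retinoic acid to the nucleus, rose from 2.54 to 14.9 cpm (2.47). Rarg, a receptor gene (5.25 to 17.1 cpm, log2 fold change 1.62), and Crabp1 (3.21 to 7.77 cpm, log2 fold change 1.17) rose as well. Cyp26b1, whose enzyme breaks retinoic acid down, had means of 2.86 cpm at E13.5 and of 1.53 cpm at E15.5 and was not called (log2 fold change -0.98, SE 0.60, edgeR adjusted p = 0.159).

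Polycomb genes moved in both directions. 6 of 27 tested members were higher and 9 were lower at E15.5 (median log2 fold change of -0.23 in KO and -0.50 in WT), close to the shares of all genes tested (29.1% and 25.2%). The PRC2 core genes Ezh2 and Suz12 both fell without overlap of the ages. Ezh2 was measured at 201, 188, 137 and 186 cpm at E13.5 and 61.2, 67.5, 61.6 and 68.0 cpm at E15.5 (log2 fold change -1.57, SE 0.13, edgeR adjusted p = 1.23e-07), and Suz12 at 362, 358, 271 and 374 cpm at E13.5 and 124, 107, 96.8 and 147 cpm at E15.5 (log2 fold change -1.63, SE 0.15, edgeR adjusted p = 3.51e-07). Eed, the third core gene, had means of 119 cpm at E13.5 and of 166 cpm at E15.5 and was not called (log2 fold change 0.38, SE 0.21, edgeR adjusted p = 0.124). Ezh1, which encodes the alternative catalytic subunit of non-dividing cells, rose from 69.3 to 168 cpm (log2 fold change 1.19, SE 0.16, edgeR adjusted p = 8.92e-06). Rbbp4, a histone-binding subunit gene of PRC2 (167 to 62.4 cpm, log2 fold change -1.52), and L3mbtl2, of a PRC1 variant (61.4 to 34.9 cpm, log2 fold change -0.92), fell too. Of the chromobox genes, Cbx2 (log2 fold change 0.70) and Cbx8 (1.95, and 2.57 without 696.6 and 892.2) rose and Cbx7 (-0.10) was not called.

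**Figure D3:**
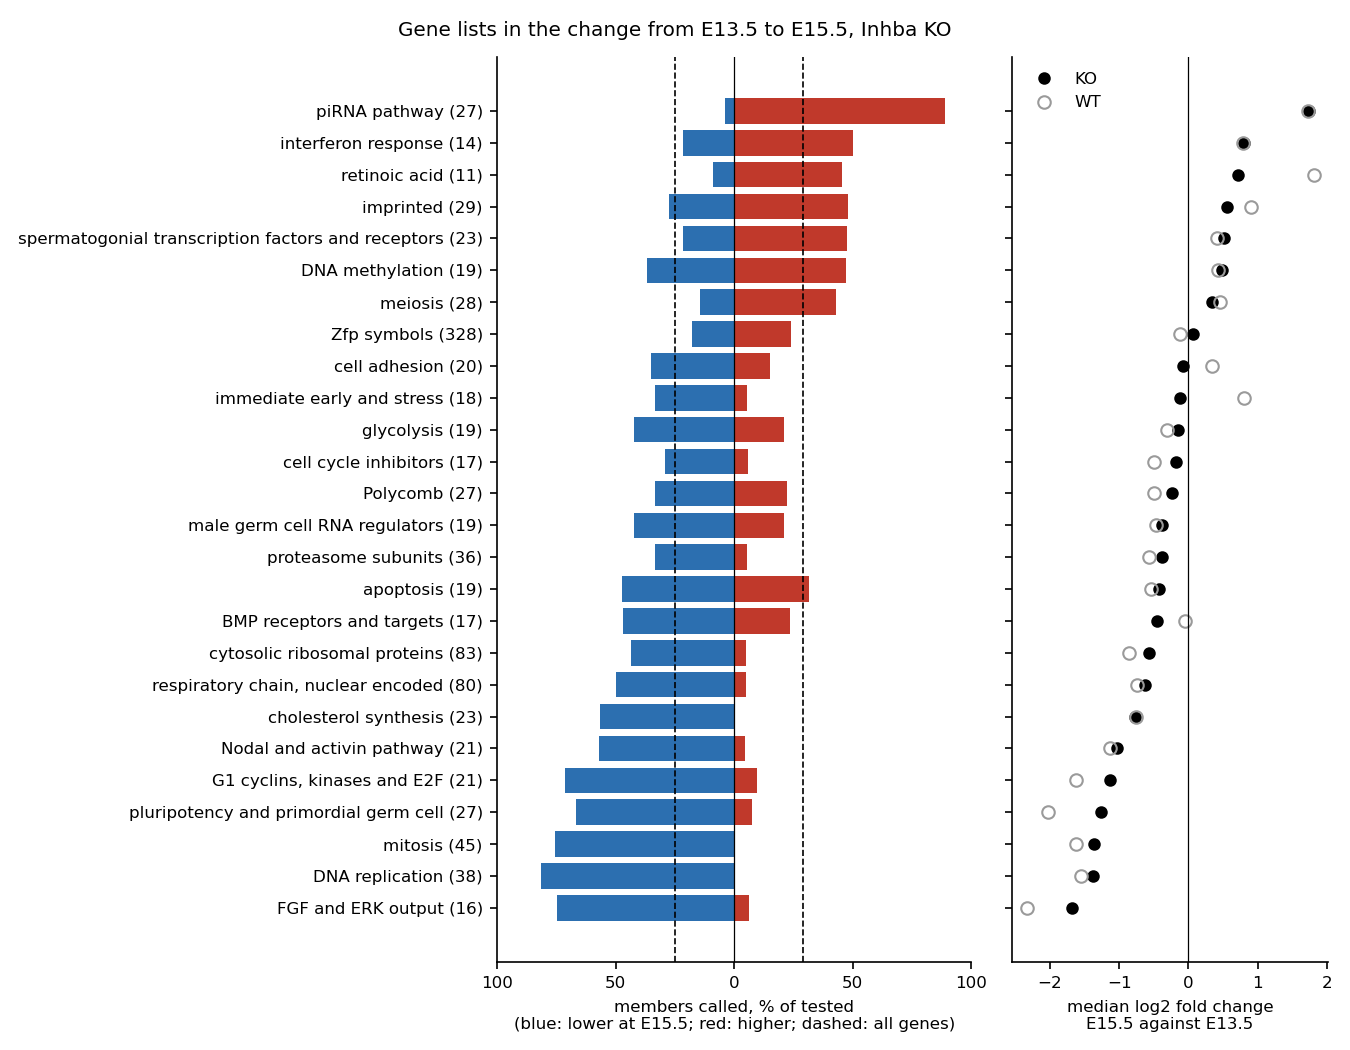
Gene lists of at least 10 tested members in the KO comparison, without motile cilium and histone genes, many of which passed the detection limit at 1 age only, with the number tested in brackets. Bars give the percent of tested members called lower (blue, left) or higher (red, right) at E15.5, with dashed lines at 25.2% and 29.1% for all tested genes; points give the median log2 fold change of the list in KO (filled) and WT (open). FGF and ERK output genes have the lowest KO median (-1.68) and piRNA pathway genes the highest (1.74).

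Without animals 696.6 and 892.2, 4496 of all 14463 tested genes were higher and 3991 lower. Higher and lower were then 1 and 13 of 21 tested in the Nodal and activin pathway and 3 and 18 of 27 in the pluripotency list. They were 23 and 1 of 27 in the piRNA pathway, 0 and 32 of 38 in DNA replication and 1 and 34 of 45 in mitosis. For Polycomb genes they were 7 and 12 of 27, for cytosolic ribosomal protein genes 4 and 44 of 83, and for proteasome subunits 2 and 16 of 36.

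The other genes with the largest rises above 50 cpm were not grouped by the lists. Vwf, which encodes von Willebrand factor, was measured at 0.111, 0.232, 4.06 and 0.507 cpm at E13.5 and 223, 268, 199 and 107 cpm at E15.5 (log2 fold change 7.27, SE 0.59, edgeR adjusted p = 1.09e-07). Vwf is best known from endothelial cells, whose markers Flt1 (1.25 to 16.5 cpm), Tek (3.04 to 13.9 cpm) and Cdh5 (3.31 to 18.8 cpm) also rose while Pecam1 fell, and their part in the rise of Vwf was not tested. Nxf2, an X-linked RNA export factor gene of germ cells, was measured at 0.941, 2.44, 34.5 and 2.43 cpm at E13.5 and 943, 967, 1078 and 710 cpm at E15.5 (log2 fold change 6.50, SE 0.84, edgeR adjusted p = 1.29e-05). Animal 696.6 stood far above the other E13.5 animals for Nxf2, and without 696.6 and 892.2 the log2 fold change was 8.84, against 9.45 for Vwf. Drc1, of the dynein regulatory complex of motile cilia and flagella, was measured at 0.664, 0.406, 0.612 and 0.507 cpm at E13.5 and 101, 80.6, 62.9 and 33.9 cpm at E15.5 (log2 fold change 6.87, SE 0.33, edgeR adjusted p = 2.88e-09), with no animal apart from its group at E13.5. Usp9y, a Y-linked deubiquitinase gene, was measured at 0.720, 2.49, 3.00 and 0.557 cpm at E13.5 and 116, 95.3, 83.6 and 81.5 cpm at E15.5 (log2 fold change 5.73, SE 0.37, edgeR adjusted p = 3.00e-08). Rrad, a small GTPase gene (1.22 to 78.8 cpm, log2 fold change 5.95), Mapk10, the JNK3 gene (0.872 to 54.5 cpm, log2 fold change 5.90), and Jakmip2 (1.52 to 72.9 cpm, log2 fold change 5.47) completed the group. The E13.5 means of Rrad and Mapk10 were carried by animal 696.6, and without 696.6 and 892.2 their log2 fold changes were 7.79 and 8.03. Among the largest falls not yet given, Txn1, which encodes thioredoxin, was measured at 125, 144, 89.5 and 126 cpm at E13.5 and 7.21, 6.28, 8.397 and 13.7 cpm at E15.5 (log2 fold change -3.86, SE 0.26, edgeR adjusted p = 3.36e-08), Id3, a target gene of BMP signalling, fell from 55.4 to 3.98 cpm (-3.95), and Hist1h2bm from 53.4 to 3.75 cpm (-3.88). Without 696.6 and 892.2 the log2 fold change of Id3 was -4.71.

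Genes of the motile cilium, which also build the sperm flagellum, were followed from 24 listed, of which 17 were tested. Of these 7 were above the detection limit at E15.5 only and so had to be higher, and those that stayed low, or fell from a low level, were not tested. The 10 above it at both ages were called higher. Dnah5, an axonemal dynein gene, was measured at 0.388, 0.812, 0.668 and 0.203 cpm at E13.5 and 30.2, 52.7, 26.9 and 9.93 cpm at E15.5 (log2 fold change 5.76, SE 0.62, edgeR adjusted p = 1.22e-06), and Cfap44, of the axoneme, at 0.498, 0.174, 0.278 and 0.101 cpm at E13.5 and 11.8, 15.8, 13.7 and 7.63 cpm at E15.5 (log2 fold change 5.42, SE 0.46, edgeR adjusted p = 1.48e-07), while Dnah9 rose from 0.446 to 13.4 cpm (4.82) and Spag16 from 2.501 to 24.4 cpm (3.20). Their ages did not overlap, and without 696.6 and 892.2 the log2 fold change of Dnah9 was 5.86. Foxj1, the master transcription factor gene of motile cilia, was not tested, with means of 1.01 cpm at E13.5 and of 0.440 cpm at E15.5. Nlrp genes are best known from oocytes and innate immunity. Of 18 listed, 9 were tested, 4 of them above the limit at E15.5 only and 1 at E13.5 only, and of the other 4, 3 were higher and 0 lower. The one member called lower was Nlrp12 (5.68 to 1.51 cpm, log2 fold change -1.99). Nlrp14 was measured at 4.87, 4.58, 8.79 and 1.22 cpm at E13.5 and 68.7, 44.9, 53.2 and 29.7 cpm at E15.5 (log2 fold change 3.26, SE 0.43, edgeR adjusted p = 7.84e-06) and Nlrp4f at 0.0554, 0, 0.501 and 0.152 cpm at E13.5 and 41.2, 36.6, 38.1 and 15.03 cpm at E15.5 (log2 fold change 7.38, SE 0.61, edgeR adjusted p = 1.20e-07). Without 696.6 the E13.5 mean of Nlrp4f lay under the level of 3 counts. Nlrp2 had no count in any E13.5 KO animal and a mean of 6.72 cpm at E15.5, at least 40.8-fold higher against a floor of 3 counts per library. Nlrp14, Rsph4a and Tekt1 of these lists were drawn from genes that the study called on these animals.

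Lists of growth and metabolism had more members lower than higher, with medians nearer to 0. The shares over all genes tested were 29.1% higher and 25.2% lower. Of cytosolic ribosomal protein genes, 4 of 83 tested members were higher and 36 were lower at E15.5 (median log2 fold change of -0.57 in KO and -0.86 in WT). Rps27l, a p53 target, fell furthest (251 to 49.9 cpm, log2 fold change -2.44). Rps19 was measured at 213, 216, 198 and 179 cpm at E13.5 and 113, 86.1, 108 and 117 cpm at E15.5 (log2 fold change -1.03, SE 0.11, edgeR adjusted p = 1.76e-06), whereas Rpl10l, a testis copy of Rpl10, rose from 36.6 to 128 cpm (1.72). Many of these genes have near-identical processed copies, so their counts are uncertain. For the nuclear-encoded respiratory chain, 4 of 80 tested members were higher and 40 were lower at E15.5 (median log2 fold change of -0.63 in KO and -0.74 in WT), and of the mitochondrially encoded genes 0 of 8 tested members were higher and 4 were lower at E15.5 (median log2 fold change of -0.56 in KO and -0.60 in WT). For proteasome subunits, 2 of 36 tested members were higher and 12 were lower at E15.5 (median log2 fold change of -0.39 in KO and -0.57 in WT). The other 22 proteasome subunits were not called, and the share called lower was close to that of all genes. Of cholesterol synthesis genes, 0 of 23 tested members were higher and 13 were lower at E15.5 (median log2 fold change of -0.77 in KO and -0.76 in WT). Sqle, the squalene epoxidase gene, was measured at 264, 208, 192 and 246 cpm at E13.5 and 57.2, 53.1, 70.7 and 79.9 cpm at E15.5 (log2 fold change -1.91, SE 0.15, edgeR adjusted p = 1.08e-07). Cyp51 (log2 fold change -1.91) and Lss (-1.77) fell too. None of these overlapped between ages. In glycolysis, 4 of 19 tested members were higher and 8 were lower at E15.5 (median log2 fold change of -0.15 in KO and -0.32 in WT), with Tpi1 at 26.4, 25.5, 26.1 and 26.6 cpm at E13.5 and 6.14, 5.17, 6.33 and 8.15 cpm at E15.5 (log2 fold change -2.12, SE 0.17, edgeR adjusted p = 8.67e-08) as the member of smallest p. Pgk1 fell from 8.06 to 2.393 cpm (log2 fold change -1.83), while Ldha rose from 21.5 to 45.3 cpm (0.97).

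**Figure D4:**
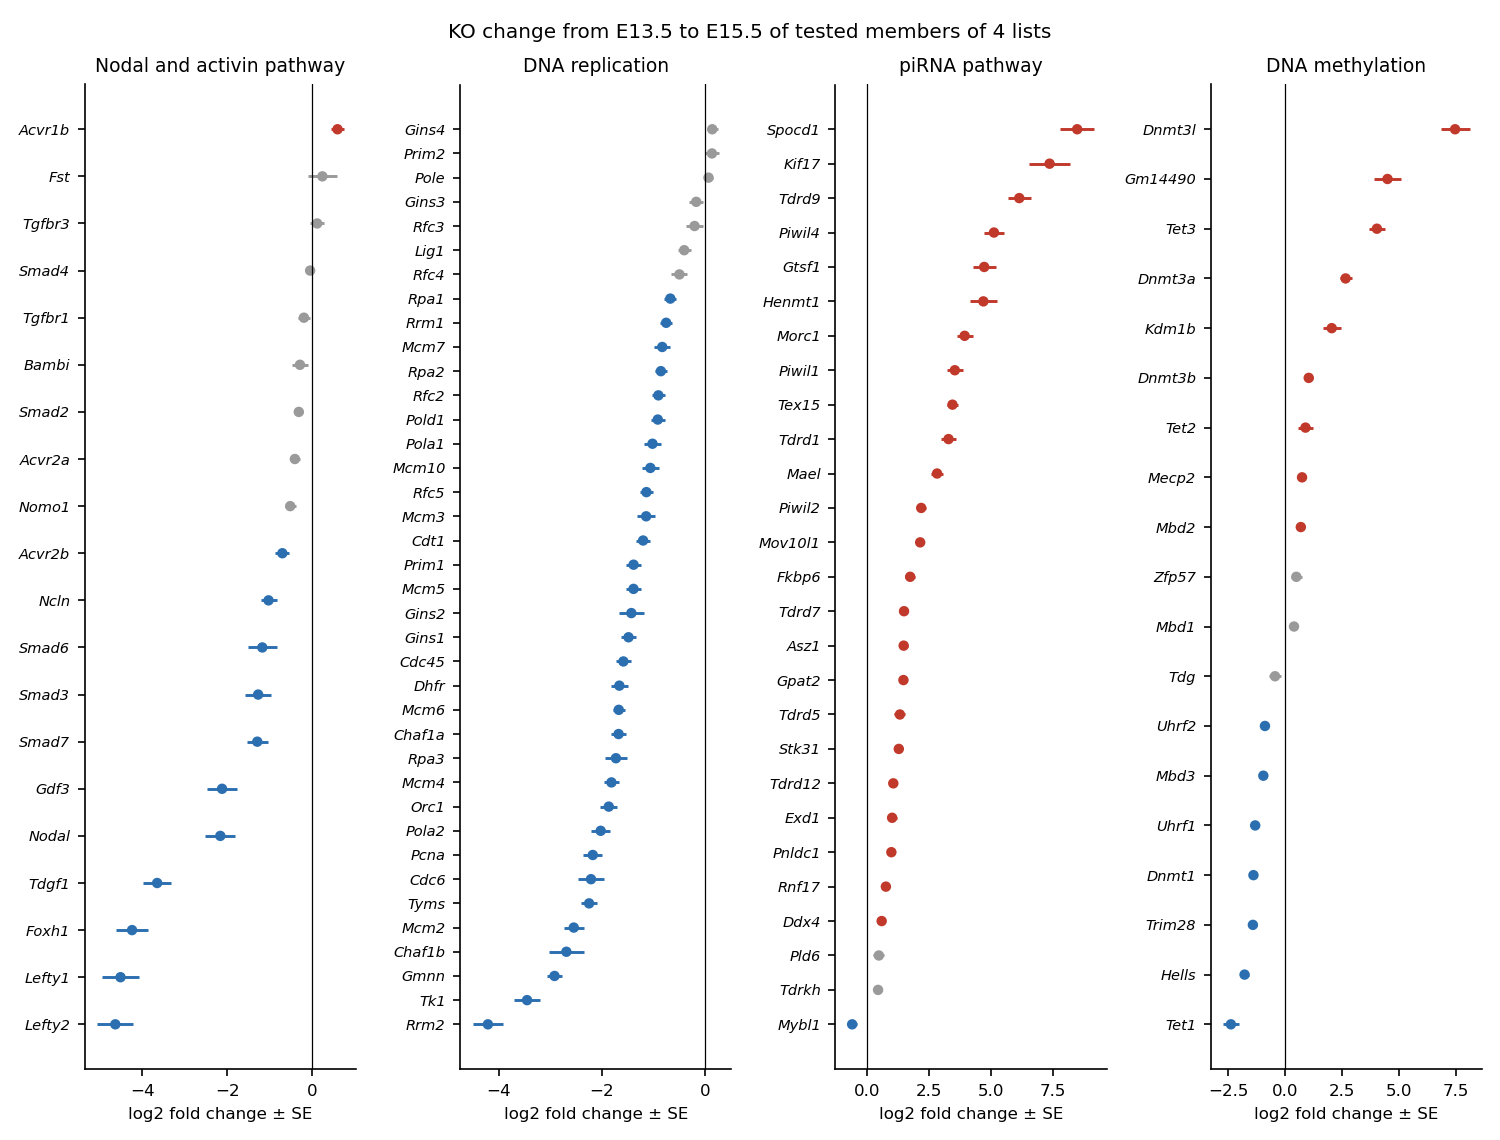
Log2 fold change from E13.5 to E15.5 in KO gonocytes (x axes, bars ± SE) of tested members of the Nodal and activin pathway, DNA replication, piRNA pathway and DNA methylation lists. Points are red when called higher, blue when called lower and grey when not called. In the piRNA panel only Mybl1 (-0.60) is blue, and in the DNA methylation panel Dnmt3l (7.46) and Tet1 (-2.38) are the extremes. The point of Kif17 is a fitted value over an E13.5 level of a few reads.

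Signs of other cells of the testis moved in several directions. In sorted bulk cells, fewer cells of a type and less RNA per cell cannot be told apart. Of the Sertoli cell markers, 1 of 11 tested was higher (Ctsl) and 8 were lower (1 and 5 of 9 without 696.6 and 892.2), with 5 of the 11 above the detection limit at E13.5 only. The median log2 fold change of Sertoli cell markers was -1.86 in KO. In WT it was 0.33, with 3 of 12 tested higher and 3 lower. Their summed level in KO was 112 to 189 cpm (E13.5) and 110 to 176 cpm (E15.5), and mean levels in KO went from 3.54 to 4.23 cpm for Sox9 and from 3.73 to 0.528 cpm for Amh. Of the Leydig cell markers, 0 of 6 tested were higher and 1 was lower (70.5 to 80.9 cpm and 54.9 to 76.9 cpm), with Insl3 at or near 0. Mesenchyme markers summed to 209 to 321 cpm and 295 to 359 cpm, with 4 of 9 tested higher and 1 lower. Most of that sum was Ptch1 (221 to 248 cpm), and Col1a1 (3.29 to 13.7 cpm), Pdgfra (3.16 to 12.02 cpm) and Postn (0.292 to 15.6 cpm) rose. Of the endothelial markers, 4 of 6 tested were higher, 2 of them above the limit at E15.5 only, and 1 was lower (99.9 to 165 cpm and 61.5 to 106 cpm). The one called lower was Pecam1, also a germ cell surface gene, which carried the sum (129 to 23.4 cpm). Macrophage markers summed to 4.87 to 6.48 cpm and 7.45 to 11.7 cpm (2 of 2 tested higher, 1 of them above the limit at E15.5 only), and erythroid markers to 7.64 to 13.2 cpm and 5.33 to 13.7 cpm (0 of 3 higher and 1 lower). The median log2 fold change of mesenchyme markers was 0.075 in KO and 2.30 in WT. For endothelial markers it was 1.63 and 2.41, and for Leydig cell markers -0.004 and 0.115. Differences between KO and WT in the marker lists were not tested. The part of these other cells of the testis in the results above was not tested.

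The change in KO gonocytes was set beside the same change in WT gonocytes, which shares no animal with it. In WT, 15380 genes were tested, of which 5236 (34%) were higher and 4319 (28.1%) lower at E15.5, 62.1% in either direction. Of 14431 genes tested in both genotypes, 7275 were called in the same direction in both, 91.2% of the KO calls and 76.1% of the WT calls, and 1 gene was called in opposite directions. The log2 fold changes of the genotypes had a Pearson r of 0.96 and a Spearman rho of 0.958 across these genes, which share libraries within a genotype and are not independent replicates. The median size of the change was 0.71 on the log2 scale in KO and 0.85 in WT, and it was smaller in KO for 69.1% of genes, with an orthogonal slope of KO on WT of 0.85. These values moved when animals 696.6 and 892.2 were left out. Without both, the slope was 1.00, the medians were 0.82 and 0.85, and 55.1% of genes were smaller in KO. These are the KO animals nearest to the other age, so leaving them out enlarges the KO change. No WT animal was left out with them, although 941.3 lay at 0.755 on the age axis, below the other E15.5 WT animals. This comparison therefore cannot decide whether the smaller KO change rests on these 2 animals. Leaving out single animals of either genotype gave slopes of 0.816 to 0.949.

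**Figure D5:**
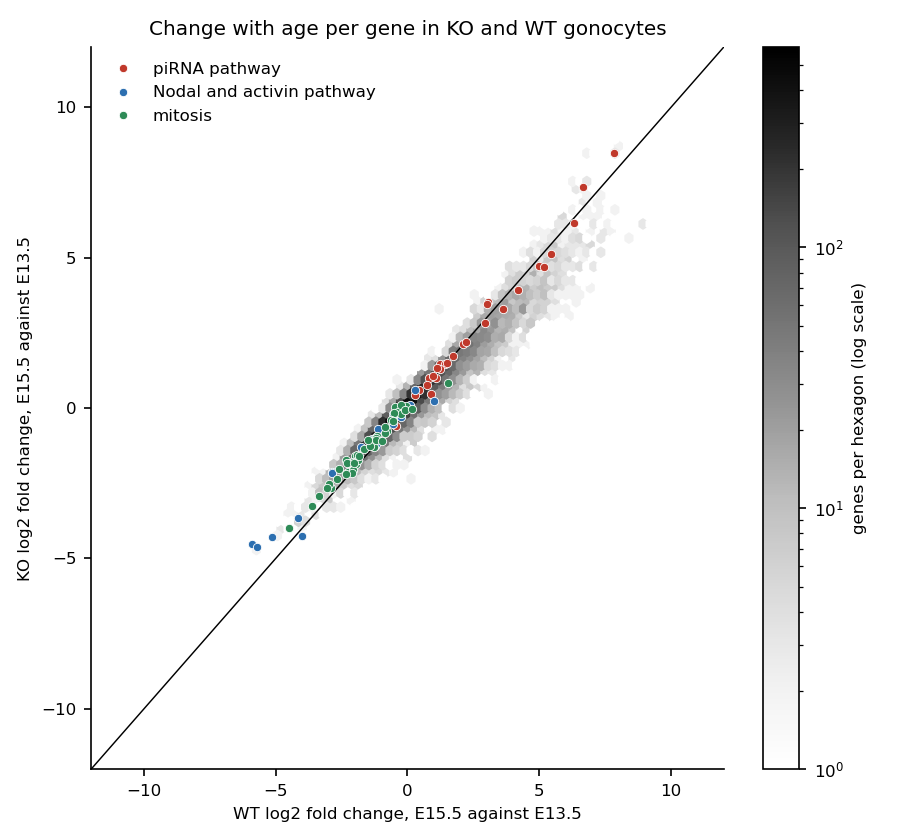
Log2 fold change from E13.5 to E15.5 of 14431 genes in KO (y axis) and WT gonocytes (x axis), as the number of genes per hexagon in grey. Coloured points are members of the piRNA pathway (red), Nodal and activin pathway (blue) and mitosis (green) lists, and the line marks equal change. Most genes lie near the line, and the orthogonal slope of KO on WT is 0.85 with all animals and 1.00 without 696.6 and 892.2.

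The difference between the genotypes in the change with age was tested gene by gene. No gene of 15841 was called (0%) by edgeR, with 966 at an unadjusted p under 0.05 (6.10%) and a smallest adjusted p of 0.324. Limma-voom also called 0 genes and DESeq2 called 11, of which 10 had the lower log2 fold change in KO. The DESeq2 adjusted p of the 11 ran from 0.00316 to 0.04996. Among the 11 were Itga4, St3gal1 and Frmpd1, with the lower value in KO, and Lhx1, with the higher (edgeR difference 2.00). Each of these 4 was at a DESeq2 adjusted p of 0.04996. With 696.6 and 892.2 left out, edgeR called 0 genes. The genes with the smallest p included 6430710C18Rik, which rose in KO from 0.480 to 4.83 cpm and in WT from 0.104 to 8.28 cpm (difference -2.84, SE 0.52, edgeR unadjusted p = 5.73e-05, adjusted p = 0.454), and Itga4, an integrin gene, with means of 2.23 cpm at E13.5 and of 3.48 cpm at E15.5 in KO, and of 0.518 to 5.55 cpm in WT (difference -2.67, SE 0.57, edgeR unadjusted p = 2.52e-04, adjusted p = 0.695). St3gal1, a sialyltransferase gene, had a difference of -2.41 (edgeR adjusted p = 0.695), and Frmpd1, measured at 17.2, 17.7, 29.4 and 22.0 cpm at E13.5 and 17.4, 18.2, 15.6 and 15.97 cpm at E15.5 in KO, a difference of -1.14 (edgeR adjusted p = 0.695). Of genes that the study follows with age, Slc43a3, a nucleobase transporter gene, had no change called in KO. Its KO levels were 5.76, 6.21, 6.57 and 4.41 cpm at E13.5 and 5.55, 8.42, 6.62 and 3.14 cpm at E15.5. In WT it went from 5.75 to 14.2 cpm (difference -1.16, SE 0.38, edgeR unadjusted p = 0.00700, adjusted p = 0.772). Nlrp14 had a log2 fold change of 3.26 in KO and of 1.27 in WT (difference 1.95, SE 0.58, edgeR unadjusted p = 0.00393, adjusted p = 0.772). Neither difference passed adjustment. For Kit, Lefty1 and Pou5f1, the edgeR adjusted p of the difference was 0.778, 0.772 and 0.78, which does not show that they changed alike.

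For single transcripts, an exact two-sided permutation test of the difference of mean cpm between the 4 E13.5 and 4 E15.5 KO animals can give no p below 0.0286 (70 splits). Each gene whose ages do not overlap (57.2% of those tested) has this value.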

How the data were processed

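RNA of sorted gonocytes was sequenced, and the authors deposited raw counts per gene, 1 column for each animal. Per the submitters' processing notes, reads were aligned to GRCm38 with STAR 2.5.2b and counted with featureCounts of Subread 1.5.2, with FastQC 0.11.5, Picard 2.26.3 and MultiQC 1.0 among their tools. How the pair of sequencing records of each animal was combined is not given in the sources used here. The E13.5 and E15.5 tables of 27633 genes were joined by gene identifier, 27 symbols turned into dates were restored, and 0 columns were left without a sample. A table of Inha animals was not used, and groups were taken from titles and column names.

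The main fit was edgeR 4.0.16 (R 4.3.3, limma 3.58.1), quasi-likelihood with robust dispersion and TMM normalization, with 1 mean for each age and genotype over all 15 Inhba animals. Genes above the study's germ cell detection limit in at least 2 of the compared animals were tested, and a DEG needed a change of more than 1.5-fold at an adjusted p (Benjamini-Hochberg) under 0.05. The members and gene lists were chosen with earlier results of these data known, so lists are described by counts and medians and were not tested. Named were the 10 largest rises and falls above 50 cpm without overlap, 4 members of smallest p of each list, the genes of smallest p of the interaction and genes the study follows; a few named members are not reported here, and other members were named for their roles after their values were seen. Some genes stand on more than 1 list, such as Gdf3, Smad7, Lin28a, Trp53 and Id4. Alternatives were DESeq2 1.42.0, limma-voom, no filter, filterByExpr, median-of-ratios size factors, the 8 KO animals alone, a test against 1.5-fold (glmTreat) and leaving out each animal. Leaving out 696.6 and 892.2 together was chosen after the data were seen. The fit was tested on simulated data of 14289 genes for the KO comparison. There 7 of 49 genes changed by 1.5-fold, 32 of 49 by 2-fold, 50 of 50 by 4-fold and 49 of 49 by 8-fold were recovered. Of 14092 unchanged genes 6 were called. The simulation gave all genes the same spread and changed few of them, whereas 54.3% were called in the data. Genes changed by 1.5-fold also had to exceed an estimated 1.5-fold, so many were missed by design. These shares are therefore not the sensitivity in the data. Summaries and plots used Python 3.11.15 with numpy 2.4.6, pandas 2.3.3, scipy 1.17.1 and matplotlib 3.10.9. Promoter sequences are from RefSeq.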

Additional observations from a re-analysis of the deposited data

Results flagged for a closer look

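A KO animal far from the other 3 of its age was looked for in 90 sets of 4 values, for named genes and marker sums, by the gap to its nearest neighbour over the range. For independent, normally distributed values chance gives about 1 in 20. These sets share the same libraries and some lie near 0 cpm, so that rate does not hold for them. In all, 13 were found, of which 10 were animal 696.6 at E13.5. For L1td1 its level was 212.8 cpm, against 527.4 to 558.4 cpm in the other E13.5 KO animals. For genes that rose with age it was above the others, with Spocd1 at 1.001 cpm (others 0 to 0.116 cpm), Dnmt3l at 1.669 cpm (0.05537 to 0.304 cpm), Vwf at 4.062 cpm (0.1107 to 0.5067 cpm) and Nxf2 at 34.49 cpm (0.9413 to 2.436 cpm). Tdrd9 was at 14.47 cpm (2.824 to 4.357 cpm), Piwil4 at 25.65 cpm (6.146 to 7.043 cpm) and Dnmt3a at 130.6 cpm (75.36 to 77.32 cpm). Rrad was at 3.839 cpm (0.1661 to 0.456 cpm) and Mapk10 at 2.893 cpm (0.1661 to 0.2533 cpm). In each of these genes animal 696.6 lay toward the E15.5 level, as on the age axis, and the log2 fold changes without it and animal 892.2 were -5.48 for L1td1, 8.84 for Nxf2 and 8.03 for Mapk10.

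The other sets concerned 3 animals. Hist1h1b was at 72.91 cpm in the E13.5 animal 831.2, against 142 to 146.7 cpm in the others. Pou5f1 was at 93.27 cpm in the E15.5 animal 1052.2, against 112.3 to 113.7 cpm. The summed interstitial mesenchyme markers were at 359.4 cpm in the E15.5 animal 892.2, against 295.2 to 299.7 cpm.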

How the results depend on the processing

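The number of genes called between the KO ages was within 1.5 times the count from all animals under median-of-ratios size factors, DESeq2, limma-voom, a fit of the 8 KO animals alone, a test against 1.5-fold, and with both 696.6 and 892.2 left out. Leaving out each KO animal in turn gave 7318 to 8366 calls, the latter without animal 892.2 and 7593 without animal 928.1, whose genotype field conflicts with its title. Without a filter on low counts 7138 genes were higher in KO and 9397 in WT, and with filterByExpr 6529 were higher in KO, because more genes were tested (27506 and 22009 in place of 14676). For the difference between genotypes, DESeq2 called 1 gene higher and 10 lower, leaving out single animals gave 0 to 2 higher and 0 to 1 lower by edgeR, and the cause was not tested. The 2 higher came without WT animal 855.2 (Rps3a1 and Rps3a2) and the 1 lower without WT animal 876.4 (Rps2). Of 2914 values of named genes under alternatives, 2891 kept their call and direction, 23 fell below the threshold and 0 reversed. Among those that fell below it were Ddx4, Mybl1 and Acvr1b, whose changes lie close to 1.5-fold. Of 1040 counts of list members called, 40 moved by more than 1.5 times. The adjusted p of Nxf2 is not available from DESeq2.

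No paired analysis was possible because the KO animals of the 2 ages were different embryos and the labels give them no shared replicate number. With 8466087 counts in the shallowest KO animal, 3 counts equal 0.354 cpm, and smaller differences at low level were not detectable at this depth. In simulated data with these library sizes, 32 of 49 genes changed by 2-fold were recovered. All genes had the same spread there and few were changed, so the share in the data may differ.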

Other observations

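Further groups of genes were compared between E13.5 and E15.5 KO gonocytes, and their values are given with no explanation. Over all genes tested, 29.1% were higher and 25.2% lower. Of BMP receptors and targets, 4 of 17 tested members were higher and 8 were lower at E15.5 (median log2 fold change of -0.45 in KO and -0.05 in WT). The receptor genes Bmpr1a (log2 fold change -1.13) and Bmpr1b (3.03), the signal transducer gene Smad1 (-1.21) and the target gene Id3 (-3.95) had the smallest p among them. In the apoptosis list, 6 of 19 tested members were higher and 9 were lower at E15.5 (median log2 fold change of -0.43 in KO and -0.54 in WT). Casp9, the initiator caspase gene, went from 19.6 to 78.5 cpm (log2 fold change 1.92), the survival gene Bcl2l1 rose (1.22), and the p53 target Bax fell from 63.4 to 22.4 cpm (-1.60). Immediate early and stress genes can respond to cell dissociation, and of these 1 of 18 tested members was higher and 6 were lower at E15.5 in KO (median log2 fold change of -0.13 in KO and 0.80 in WT). In WT, 8 of 18 tested members were higher and 2 were lower, and the difference between the genotypes in this list was not tested. KO levels of Myc went from 3.66 to 1.62 cpm (-1.31), of Ier2 from 20.8 to 2.92 cpm (-2.93), of Dusp1 from 43.5 to 20.6 cpm (-1.18) and of Zfp36 from 5.58 to 13.9 cpm (1.23). Of the cell adhesion genes, 3 of 20 tested members were higher and 7 were lower at E15.5 (median log2 fold change of -0.09 in KO and 0.34 in WT), with Epcam at 233, 276, 196 and 239 cpm at E13.5 and 45.7, 49.2, 51.9 and 60.2 cpm at E15.5 (log2 fold change -2.29, SE 0.14, edgeR adjusted p = 1.91e-08) and L1cam rising from 1.54 to 40.3 cpm (4.60). Itgav (-2.18) and Itgb5 (-1.62), of integrin subunits, fell.

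Imprinted genes, expressed from 1 parental allele in most tissues, moved in both directions. 14 of 29 tested members were higher and 8 were lower at E15.5 (median log2 fold change of 0.56 in KO and 0.90 in WT). Peg10 was measured at 11.5, 4.76, 18.3 and 5.42 cpm at E13.5 and 214, 278, 261 and 172 cpm at E15.5 (log2 fold change 4.46, SE 0.32, edgeR adjusted p = 4.52e-08) and Mest at 155, 172, 121 and 153 cpm at E13.5 and 43.4, 33.2, 30.9 and 49.6 cpm at E15.5 (log2 fold change -2.04, SE 0.18, edgeR adjusted p = 1.67e-07). Zrsr1 (log2 fold change 1.496) and Kcnq1ot1 (-1.56) were the other members of smallest p. Of interferon response genes, 7 of 14 tested members were higher and 3 were lower at E15.5 (median log2 fold change of 0.80 in KO and 0.78 in WT). Ifi27 rose from 39.7 to 161 cpm (log2 fold change 1.95) and Mx1 from 0.107 to 2.97 cpm, and Ifi44 went from 0.0278 to 5.35 cpm. Few of the Hox genes and clustered protocadherins lay above the detection limit. Of 35 Hox genes 2 could be tested, Hoxd1 (0.377 to 2.62 cpm) and Hoxd8 (0.804 to 3.54 cpm), both above it at E15.5 only, as were 3 of the 4 of 44 clustered protocadherins that could be tested. Of 6 tested Rhox genes, 2 were higher and 3 lower, with 2 above the limit at E13.5 only, Rhox10 rising and Rhox9 falling from 9.96 to 0.985 cpm (-3.52). Of 328 tested genes with Zfp symbols, 79 were higher and 58 lower, with a median log2 fold change of 0.06. Over all genes tested the shares were 29.1% and 25.2%.

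Classes of transcripts differed in the share called. Processed pseudogenes were lower more often than higher (35.8% and 9.97% of 752 tested), lincRNA genes higher more often than lower (42.3% and 19.5% of 298), and antisense genes likewise (38.3% and 14% of 214), against 30.5% and 25% of 12533 protein-coding genes. On the X chromosome 32.8% of 588 tested genes were higher and 25.7% lower, against 29% and 25.2% on autosomes. Reads of pseudogenes and of their parent genes cannot be told apart with certainty, and neither can antisense pairs where strand was not used.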
